A study of Mus musculus with 9 samples.

Results

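The genes described here are 10 genes of adrenal cortex steroid synthesis, Scarb1, Star, Cyp11a1, Hsd3b1, Cyp21a1, Cyp11b1, Cyp11b2, Mc2r, Nr5a1 and Akr1b7, followed through 9 RNA sequencing libraries of mouse vascular tissue. They were picked by name from a table of 54532 genes, because of their high level in 1 library of the SAHH-WT group, SAHH-WT 1. Their levels are therefore given as a description, with no test of that level. All 10 were found in the table.

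All mice were C57BL/6, aged 24 weeks, and labelled ApoE-/-, a background prone to atherosclerosis, in 3 groups of 3 libraries. The SAHH-WT mice carried wild-type SAHH, the SAHH-het mice were SAHH+/-, and the SAHH-het+betaine mice were SAHH+/- and received betaine. The dose of betaine and its route were not found in the sources used here. Ahcy encodes SAHH, the hydrolase of S-adenosylhomocysteine, and betaine is a donor of methyl groups. Whether each library is a separate animal is not said in the labels, and p-values then measure only the spread between these libraries, which may be technical.

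The cortex of the adrenal gland, a small organ in the fat beside the kidney, turns cholesterol into corticosterone, the main glucocorticoid of mice, and into aldosterone. Cholesterol is taken up from lipoproteins, moved into mitochondria, cut to pregnenolone, and then oxidized by a short chain of enzymes that alternate between mitochondria and the endoplasmic reticulum. The pituitary hormone ACTH drives this chain through its receptor, and the nuclear receptor encoded by Nr5a1, also called SF-1, switches its genes on. The vessel wall is not a known main site of this chain, although vessel cells also use Scarb1, the HDL receptor.

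The libraries held 15837593 to 17381893 recovered fragments each, so depth differed little between them. Apoe went against the label of 1 group. It was 2.91, 4.35 and 6.11 FPKM (fragments per kilobase of exon, scaled per library) in SAHH-WT 1, 2 and 3. In the 3 labelled SAHH-het it was 149, 223 and 225 FPKM, and with betaine 5.51, 8.88 and 7.32 FPKM. Every direction below that involves the libraries labelled SAHH-het carries that mismatch. Ahcy was 8.90 ± 2.32 FPKM (SD, n = 3) in SAHH-WT and 4.04 ± 0.649 FPKM in libraries labelled SAHH-het, a ratio of 0.454, or 0.533 with SAHH-WT 1 set aside. Ahcy in SAHH-het+betaine was 7.66, 9.70 and 8.63 FPKM, although these mice are labelled heterozygous as well. Of the markers of vascular tissue, 6 smooth muscle genes summed to 71.0 FPKM in SAHH-WT 1 and 60.2 to 215 FPKM elsewhere. Acta2 supplied most of that, at 53.0 FPKM in SAHH-WT 1 and 37.8 to 163 FPKM elsewhere. Tagln, chosen after its values were seen, did not pass 1.05 FPKM in any library.

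Sequences are shown for the pair of members that are close copies of each other and for the start sites of members that share the pattern. Cyp11b1 encodes 11-beta-hydroxylase, which makes corticosterone, and Cyp11b2 encodes aldosterone synthase. They are neighbours on chromosome 15, 9.37 kb apart in GRCm38, and their coding sequences are identical at 1319 of 1514 aligned positions, or 87.1%. Among 90-base stretches without alignment gaps, they differ most at coding bases 491 to 580 in both, with 32 mismatches in 90 bases. The mismatches are shown in capitals (GENCODE M21 transcripts, GRCm38, chromosome 15, sense strand).
Cyp11b1: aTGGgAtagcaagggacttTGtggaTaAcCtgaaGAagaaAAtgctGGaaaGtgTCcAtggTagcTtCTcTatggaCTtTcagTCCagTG
Cyp11b2: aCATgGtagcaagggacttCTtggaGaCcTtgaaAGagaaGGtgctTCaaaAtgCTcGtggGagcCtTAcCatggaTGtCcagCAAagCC
Of the 150-base windows of their transcripts, 95 occur in both genes, which is 3.15% of the windows of Cyp11b1 and 6.44% of those of Cyp11b2. A 150-base read equal to such a window cannot by itself be assigned to either gene, though its mate may lie outside these windows. None of the other 8 members shared an identical 150-base window with another gene's transcripts, and windows that differ by a few bases were not counted.

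RefSeq start windows (GRCm38.p6) were at hand for 3 of the 10 members, Akr1b7, Hsd3b1 and Cyp11a1, the last with 2 starts. The 250 bases before the start are printed for Akr1b7, the member with an element of the kind that SF-1 binds, and for Hsd3b1, the member with the highest level. Capitals mark a match to AAGGTCA on either strand.
Akr1b7, chr6:34412112-34412361, plus strand: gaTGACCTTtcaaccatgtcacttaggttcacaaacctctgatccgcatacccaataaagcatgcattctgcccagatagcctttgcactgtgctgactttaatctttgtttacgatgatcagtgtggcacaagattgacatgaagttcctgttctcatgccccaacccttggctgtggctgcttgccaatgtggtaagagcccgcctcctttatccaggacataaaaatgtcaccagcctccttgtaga
Hsd3b1, chr3:98859795-98860044, minus strand: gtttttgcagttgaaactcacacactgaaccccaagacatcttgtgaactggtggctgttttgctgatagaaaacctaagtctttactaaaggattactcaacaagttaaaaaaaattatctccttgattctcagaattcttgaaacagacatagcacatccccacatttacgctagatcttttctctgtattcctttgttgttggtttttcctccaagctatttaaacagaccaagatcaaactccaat
The Akr1b7 window held 1 AAGGTCA, on the reverse strand, 248 bases before the start (position -248). AAGGTCA, on either strand, was found in 4.72% of all 32851 windows, AAGGNCA, which includes it, in 20.3%, and the TATA core TATAAA in 13.6%. The windows of Hsd3b1 and Cyp11a1 held none of these letters, which says nothing about binding of the factor. The bases before the 2 Cyp11a1 starts ended at chr9:57998023 and chr9:58014951. Cyp11a1 spans chr9:58006411-58027023 in GENCODE M21, so the first lies outside the gene and the second within it. The bases just before that GENCODE start were not searched.

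The first steps of the pathway were the ones with a level in every library. Scarb1 encodes SR-BI, the receptor that takes cholesterol esters from HDL (ENSMUSG00000037936, chr5:125277087-125341094, GRCm38, minus strand). Its level was 97.9, 17.5 and 12.9 FPKM in SAHH-WT 1, 2 and 3, 10.6, 21.5 and 15.6 FPKM in libraries labelled SAHH-het 1, 2 and 3, and 12.5, 15.8 and 13.0 FPKM in SAHH-het+betaine 1, 2 and 3. SAHH-WT 1 was 4.56 times the next library, and the other 8 lay within a factor of 2.02 of each other, with all groups overlapping. Of the members, Scarb1 stood out least in SAHH-WT 1, with 16974 fragments there and 1249 to 3258 in each other library.

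Star encodes the steroidogenic acute regulatory protein, which moves cholesterol to the inner mitochondrial membrane (ENSMUSG00000031574, chr8:25806555-25815982, plus strand). Its level was 1128, 1.98 and 2.18 FPKM in SAHH-WT 1, 2 and 3, 1.42, 1.59 and 2.59 FPKM in libraries labelled SAHH-het, and 1.40, 2.48 and 1.48 FPKM with betaine. SAHH-WT 1 was 436 times the next library, while the other 8 differed by at most 1.86 times and did not separate by group. Star was thus never absent, and the 8 other libraries held 955 of its fragments against 94638 in SAHH-WT 1.

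Cyp11a1 encodes the side-chain cleavage enzyme that makes pregnenolone, the step that commits cholesterol to steroids (ENSMUSG00000032323, chr9:58006411-58027023, plus strand). It was 422, 0.0464 and 0.0525 FPKM in SAHH-WT 1, 2 and 3, 0.0151, 0.0699 and 0.139 FPKM in libraries labelled SAHH-het, and 0.0739, 0.160 and 0.0953 FPKM with betaine. Fragments of Cyp11a1 were therefore found in all 9 libraries, but outside SAHH-WT 1 at 1 to 10 each and 47 in all, against 41363. The 1 fragment in SAHH-het 1 is under the floor of 3 fragments used below. The ratio of SAHH-WT 1 to the next library was 2640, and the low values of the 3 groups overlapped.

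Hsd3b1 encodes 3-beta-hydroxysteroid dehydrogenase, which turns pregnenolone into progesterone (ENSMUSG00000027871, chr3:98852194-98859794, minus strand). It was 4239 FPKM in SAHH-WT 1, 0.0319 FPKM in SAHH-het+betaine 1, and 0 in the other 7 libraries. Apart from genes of the mitochondrial chromosome it was the highest of all genes in SAHH-WT 1, with 160337 fragments against 1 in the other 8 libraries together. Cyp21a1 encodes steroid 21-hydroxylase (ENSMUSG00000024365, chr17:34801348-34804561, minus strand). It was second in that ranking, at 2899.7 FPKM from 126542 fragments, and was at 0 in the other 8 libraries. A floor of 3 fragments in a library equals at most 0.108 FPKM for Cyp21a1, so SAHH-WT 1 was at least 26924-fold higher.

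The last enzymes of the chain were at 0 in all libraries but SAHH-WT 1. Cyp11b1 (ENSMUSG00000075604, chr15:74834125-74841643, minus strand) was 936 FPKM there from 60407 fragments, at least 12853-fold higher than the floor of 3 fragments in any other library. Cyp11b2 (ENSMUSG00000022589, chr15:74851010-74856318, minus strand) was 9.42 FPKM from 312 fragments, at least 66.4-fold higher than that floor. Per length, the aldosterone enzyme was thus at 1.01% of the corticosterone enzyme, and Hsd3b1 was 450 times Cyp11b2. The printed stretch tells the 2 copies apart at 32 bases, but the shared windows named above are a larger part of Cyp11b2 than of Cyp11b1, and how many of the 312 fragments came from them was not tested.

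In SAHH-WT 1, the receptor and the transcription factor were lower than every enzyme above other than Cyp11b2, while in the other 8 libraries Mc2r was above all of these enzymes. Mc2r encodes the ACTH receptor (ENSMUSG00000045569, chr18:68406907-68429320, minus strand). It was 149, 1.89 and 1.05 FPKM in SAHH-WT 1, 2 and 3, 2.59, 2.15 and 2.79 FPKM in libraries labelled SAHH-het, and 1.55, 2.26 and 1.32 FPKM with betaine. SAHH-WT 1 was 53.3 times the next library, and the other 8 spanned a factor of 2.66. Fragments could not be recovered as whole numbers for Mc2r with this annotation, the 1 member of 10 where that failed. Nr5a1, the SF-1 gene (ENSMUSG00000026751, chr2:38692656-38714542, minus strand), was 99.2 FPKM in SAHH-WT 1 from 8578 fragments, 0.0297 FPKM in SAHH-WT 3, 0.0139 FPKM in SAHH-het+betaine 1 and 0 in 6 libraries. Its transcripts outside SAHH-WT 1 came to 3 fragments in all.

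Akr1b7 encodes an aldo-keto reductase that in the mouse adrenal clears the aldehyde released by side-chain cleavage (ENSMUSG00000052131, chr6:34412334-34423142, plus strand). It was 732 FPKM in SAHH-WT 1 from 19131 fragments, 0.0985 FPKM in SAHH-WT 3, 0.0462 FPKM in SAHH-het+betaine 1 and 0 in 6 libraries, where 3 fragments were all that the other 8 held. The 1 fragment of Hsd3b1 outside SAHH-WT 1 was in that same SAHH-het+betaine 1 library.

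**Figure D1:**
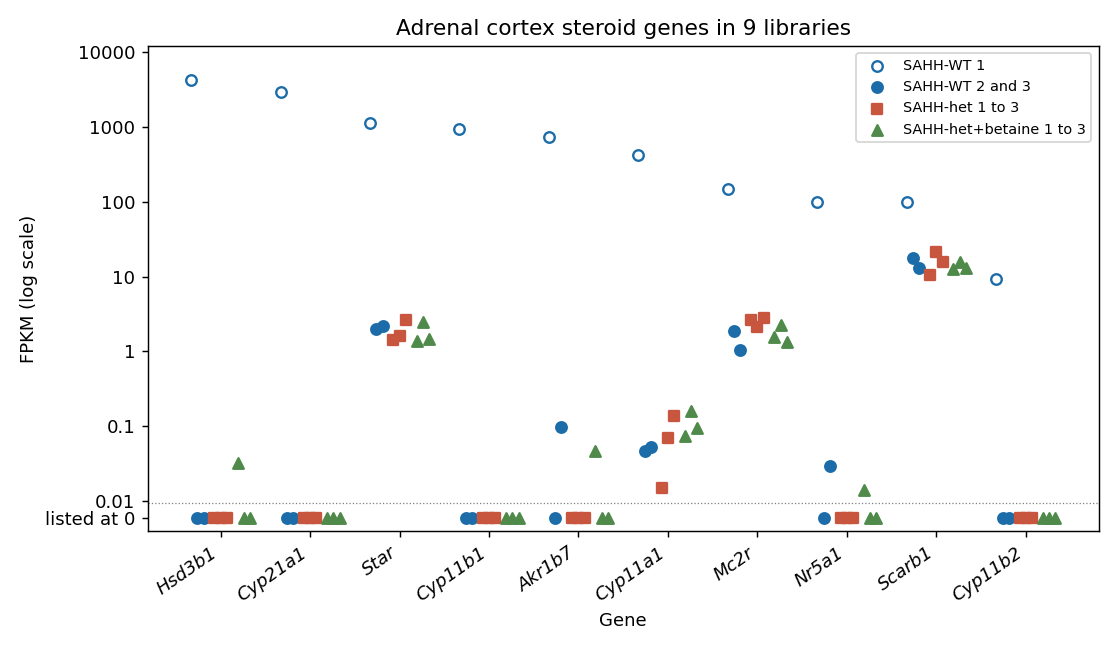
Level of each of the 10 genes in FPKM (log axis) in each of 9 libraries; the open circle is SAHH-WT 1, and symbols under the dotted line are libraries listed at 0. SAHH-WT 1 is the highest library for every gene, Scarb1, Star and Mc2r form a low band in the other 8, and Cyp21a1, Cyp11b1 and Cyp11b2 are at 0 in all of those.

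The members fell into 3 kinds by their level outside SAHH-WT 1. Scarb1, Star and Mc2r had a steady level in all libraries. Cyp11a1 was near the limit of detection. Hsd3b1, Cyp21a1, Cyp11b1, Cyp11b2, Nr5a1 and Akr1b7 together had 375307 fragments in SAHH-WT 1 and 7 in the other 8 libraries. Over all 10 genes, the share of fragments was 3.37% in SAHH-WT 1 and 0.00864 to 0.0210% in the others. In bulk tissue, more cells of a type and more RNA per cell cannot be told apart.

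The spread of the SAHH-WT group for these genes was the value of 1 library. Hsd3b1 averaged 1413 ± 2447 FPKM (SD, n = 3) in SAHH-WT, Cyp21a1 967 ± 1674 FPKM, Star 377 ± 650 FPKM, Mc2r 50.5 ± 84.9 FPKM and Scarb1 42.8 ± 47.8 FPKM. Each SD exceeded its mean. All 10 members passed the filter of a mean of at least 0.5 FPKM over the 9 libraries, but 3 of them, Scarb1, Star and Mc2r, passed it with SAHH-WT 1 set aside, so the others entered the comparisons through that library.

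In the comparison that asks what SAHH heterozygosity changes, SAHH-het minus SAHH-WT, none of the 10 members was called by limma at a Benjamini-Hochberg adjusted p under 0.05. Of all 15610 genes tested, 4 were called, or 0.0256%, and 1945 genes but 0 members had an unadjusted p under 0.05. A fit of these 6 libraries alone with the replicate number as its block called 0 genes. As log2(FPKM + 0.5) differences, Star was -3.08 (95% interval -7.71 to 1.55, adjusted p = 0.517 by limma), Mc2r -1.45 (-4.78 to 1.88, adjusted p = 0.665 by limma) and Scarb1 -0.87 (-2.38 to 0.65, adjusted p = 0.571 by limma). SAHH-WT 1 had chosen the members, so nothing is read from these values.

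With SAHH-WT 1 set aside, the 3 members with a steady level could be compared between groups. Scarb1 had a mean of 15.2 FPKM in SAHH-WT 2 and 3 and 15.9 ± 5.42 FPKM (SD, n = 3) in the libraries labelled SAHH-het, a log2 difference of 0.02 (95% interval -0.67 to 0.71, adjusted p = 0.980 by limma). Star was 2.08 FPKM against 1.87 ± 0.630 FPKM, a difference of -0.15 (-0.84 to 0.53, adjusted p = 0.847 by limma). Neither difference passed the spread between libraries, and the intervals leave room for changes of either sign. Mc2r was 1.47 FPKM against 2.51 ± 0.327 FPKM, a difference of 0.64 (-0.00 to 1.28, adjusted p = 0.393 by limma). All 3 libraries labelled SAHH-het lay above both remaining SAHH-WT libraries for Mc2r, and the difference did not pass the test. Without SAHH-WT 1, the libraries of these 2 groups did not overlap in 29.1% of all genes tested. Without SAHH-WT 1, 4 of 15393 genes tested were called, or 0.026%.

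Betaine in heterozygous mice was compared between libraries that do not include SAHH-WT 1. Of the members, 7 were in the fit only through SAHH-WT 1 and were at or near 0 in both groups, so nothing is read from their differences. Scarb1, Star and Mc2r were not called by limma in SAHH-het+betaine minus SAHH-het, where 3 genes were, or 0.0192% of 15610, and 1254 genes had an unadjusted p under 0.05 but none of these 3. Scarb1 was 13.7 ± 1.76 FPKM (SD, n = 3) with betaine, Star 1.79 ± 0.605 FPKM and Mc2r 1.71 ± 0.491 FPKM. The shared estimate of spread still held SAHH-WT 1 in that fit, which made the intervals wide, such as -4.68 to 4.58 for Star around -0.05. With that library set aside 3 of 15393 genes were called, or 0.0195%, and the log2 difference was -0.15 for Scarb1 (-0.77 to 0.46, adjusted p = 0.856 by limma), -0.05 for Star (-0.66 to 0.56, adjusted p = 0.957 by limma) and -0.46 for Mc2r (-1.03 to 0.11, adjusted p = 0.532 by limma). The libraries of the 2 groups overlapped for each of these genes.

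The comparison of SAHH-het+betaine with SAHH-WT, which asks how far treated heterozygotes stand from the wild type, called 0 genes of 15610, or 0%, by limma, with 1251 genes at an unadjusted p under 0.05. Without SAHH-WT 1 the log2 differences were -0.13 for Scarb1 (-0.82 to 0.56, adjusted p = 0.910 by limma), -0.20 for Star (-0.88 to 0.48, adjusted p = 0.865 by limma) and 0.18 for Mc2r (-0.46 to 0.82, adjusted p = 0.878 by limma). The 3 comparisons share their groups, so these values are not independent of those above. Ordered by mean without SAHH-WT 1, Mc2r ran from 1.47 FPKM in SAHH-WT through 1.71 with betaine to 2.51 in SAHH-het, and no neighbouring pair in that order was called.

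**Figure D2:**
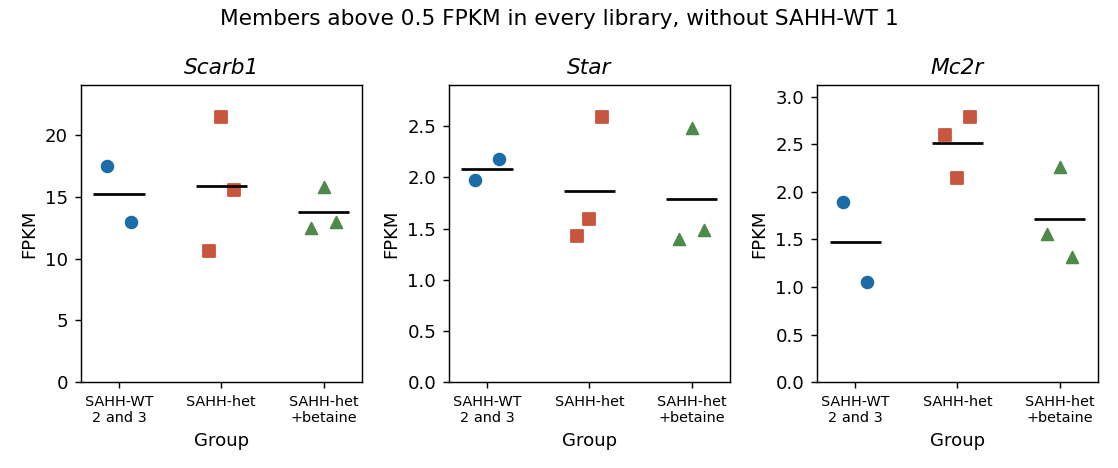
FPKM of Scarb1, Star and Mc2r in 8 libraries with SAHH-WT 1 left out; points are libraries and bars are group means. The groups overlap for Scarb1 and Star, and the 3 libraries labelled SAHH-het are above SAHH-WT 2 and 3 for Mc2r.

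**Figure D3:**
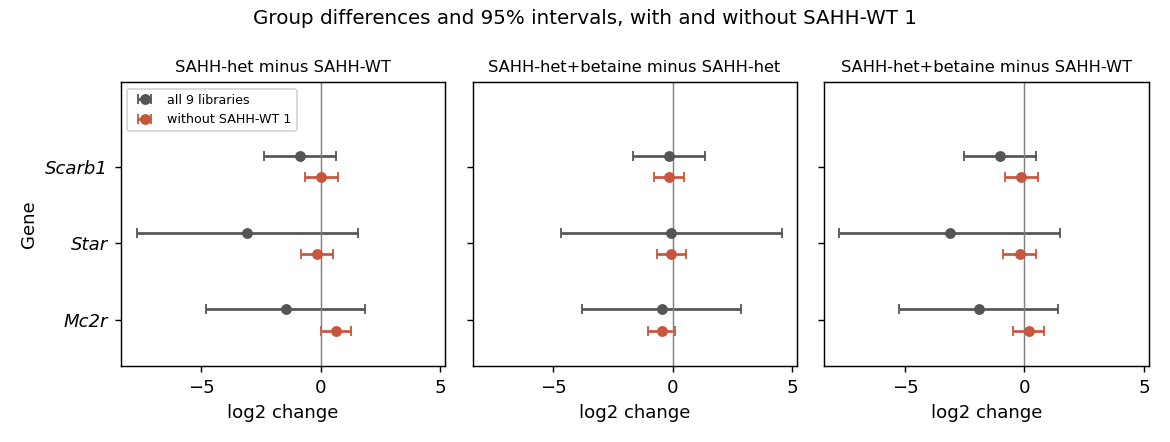
log2(FPKM + 0.5) differences between groups for the same 3 genes, with 95% intervals from limma, from all 9 libraries (grey) and without SAHH-WT 1 (red). Leaving out SAHH-WT 1 narrows every interval, and the value for Mc2r in SAHH-het minus SAHH-WT goes from -1.45 to 0.64.

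Other genes of the pathway are given from lists of known genes. Among all 15610 genes tested, SAHH-WT 1 was the highest library for 3191, or 20.4%, the lowest for 3206, and more than 10 times the next library for 121. These places and those below are by FPKM as deposited. SAHH-WT 1 had the smallest FPKM sum, so TPM rescaling raises it and can end a lowest place there. No gene of the lists below was called by limma in any of the 3 comparisons. In SAHH-het+betaine minus SAHH-het, over the genes that pass the filter without SAHH-WT 1, the median log2 difference was 0.06 for 6 of 7 electron transfer partners, 0.23 for all 14 genes of cholesterol supply, 0.17 for 14 of 17 genes of ACTH and angiotensin signalling, 0.04 for 8 of 11 cortex transcription factors and 0.26 for 9 of 15 zone and capsule genes. The median over all 15393 genes was -0.01. An unadjusted p under 0.05 was reached by 1 gene of cholesterol supply, 2 zone and capsule genes and 0 of the other 3 lists, beside 1600 of all genes, or 10.4%. Of 16 other steroid enzymes, 3 passed the filter, too few for a median to describe the list.

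Electron transfer partners carry electrons to the steroid P450 enzymes, and SAHH-WT 1 was the highest library for 4 of 7. Fdxr, ferredoxin reductase, was 236 FPKM there and 5.26 to 9.67 FPKM in the others. Fdx1, the ferredoxin that feeds the mitochondrial P450 enzymes, was 127 FPKM against 12.4 to 27.7 FPKM. Among partners used in the endoplasmic reticulum, Por, P450 reductase, was lowest in the same library, at 34.99 FPKM against 40.5 to 96.3, and so was Cyb5a, cytochrome b5, at 52.6 FPKM against 66.8 to 104. Cyb5r3, a reductase of cytochrome b5 chosen after its values were seen, was highest there, at 71.2 FPKM against 29.4 to 67.8.

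Cholesterol supply genes did not follow the members, with 2 of 14 highest and 5 lowest in SAHH-WT 1 and a summed level of 482 FPKM against 548 to 970 FPKM. Tspo, a protein of the outer mitochondrial membrane, was 237 FPKM against 248 to 488. Lipe, the lipase that frees stored fat and cholesterol esters, was 37.8 FPKM against 107 to 230, and Npc2, which exports cholesterol from lysosomes, 35.8 FPKM against 67.0 to 96.4. Lipa, the lysosomal acid lipase, was within the range of the others. Soat1, which stores cholesterol as esters and was chosen after its values were seen, was 36.7 FPKM in SAHH-WT 1. It was 3.18 and 3.32 FPKM in SAHH-WT 2 and 3, 1.10, 1.85 and 0.602 FPKM in libraries labelled SAHH-het, and 1.80, 1.11 and 1.02 FPKM with betaine. Both remaining SAHH-WT libraries were above the 6 others for Soat1, where 9.39% of all genes tested separated these libraries in either direction, at a log2 difference of -1.22 in SAHH-het minus SAHH-WT that was not called (adjusted p = 0.292 by limma, without SAHH-WT 1).

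Of 16 other steroid enzymes, 10 were highest in SAHH-WT 1, 3 were at 0 everywhere, and the sum was 279 FPKM against 16.3 to 50.4 FPKM. Akr1d1, a 5-beta-reductase of steroids, was 189.7 FPKM there and at most 0.0926 FPKM elsewhere. Srd5a2, a 5-alpha-reductase, was 42.8 FPKM against at most 0.180, and Akr1c18, which inactivates progesterone, 19.0 FPKM against at most 0.314. Cyp17a1, which opens the way to cortisol and sex steroids and is known to be off in the adult mouse adrenal cortex, was at 0 in SAHH-WT 1 and at most 0.109 FPKM in any library, and Cyp19a1, aromatase, was at 0 in all 9 (both chosen after their values were seen). Hsd3b6, a relative of Hsd3b1 lying 37.75 kb from it, was 5.58 FPKM in SAHH-WT 1 and 0 in the others (chosen likewise).

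Hsd11b1, which regenerates active corticosterone inside cells, had a pattern unlike that of the members. It was 12.5, 14.1 and 18.5 FPKM in SAHH-WT, 36.1, 30.5 and 48.5 FPKM in libraries labelled SAHH-het, and 14.3, 17.8 and 20.3 FPKM with betaine, so that SAHH-WT 1 was its lowest library. The libraries labelled SAHH-het lay above all others, as log2 differences of 1.31 to SAHH-WT (95% interval 0.78 to 1.85, adjusted p = 0.237 by limma) and, with betaine minus SAHH-het, -1.10 (-1.64 to -0.57, adjusted p = 0.460 by limma). Neither passed the adjustment over all genes. SAHH-het and SAHH-WT libraries did not overlap in 16.6% of all genes tested, and SAHH-het and SAHH-het+betaine libraries in 16.4%.

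The list of ACTH and angiotensin signalling had 9 of 17 genes highest in SAHH-WT 1, and a sum of 709 FPKM against 344 to 603 FPKM. Kcnk3, a potassium channel that sets the membrane potential of the cells that make aldosterone, was 225 FPKM against 59.7 to 170 FPKM. Mrap, the accessory protein that takes the ACTH receptor to the cell surface and that fat cells also make, was 132 FPKM, within the 79.2 to 158 FPKM of the others. Prkaca, a catalytic subunit of protein kinase A, was also within the range of the others, and Prkar1a, a regulatory subunit, was 86.3 FPKM against 61.8 to 75.2. The receptor Mc2r and its partner Mrap thus differed in their pattern over the libraries.

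Of 11 cortex transcription factors, 7 were highest in SAHH-WT 1, with a sum of 76.6 FPKM against 21.7 to 31.8 FPKM. Nr0b1, which encodes DAX1, a repressor of SF-1 activity, was 10.7 FPKM against at most 0.0425 FPKM. Cited2, a transcription cofactor needed for the adrenal to form in the mouse, was 21.8 FPKM against 5.69 to 10.2. Gata6 was 9.77 FPKM against 0.686 to 3.59, and Nr2f2, a nuclear receptor, 10.04 FPKM against 2.68 to 3.69. Genes of the cortical zones and capsule had 11 of 15 highest there, with a sum of 282 FPKM against 45.4 to 90.7 FPKM. Dlk1, made by cells under the capsule, was 70.6 FPKM against at most 0.616, Dab2, known from the outer zone, 47.9 FPKM against 4.25 to 8.75, and Abcb1b, a transporter that exports steroids among other molecules, 48.4 FPKM against 2.26 to 6.31. Ctnnb1, the Wnt effector, was within the range of the others.

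Markers of other tissues moved with the members in SAHH-WT 1, and their part in these results was not tested. Of 10 markers of the adrenal medulla, the catecholamine-making core of the gland, 8 were highest there, with a sum of 2043 FPKM against 1.39 to 253 FPKM. The other 2, Slc6a2 and Ddc, were within the range of the other libraries (both chosen after their values were seen). Slc6a2 was 2.42 FPKM in SAHH-WT 1 against 0.168 to 43.7 FPKM, and Ddc 10.8 FPKM against 0.0689 to 26.7 FPKM. Chga and Chgb, proteins of the hormone granules, were 769 and 765 FPKM against at most 10.9 and 8.31 FPKM. Pnmt, which makes adrenaline, was 172 FPKM against at most 0.399 FPKM, while Th, which starts catecholamine synthesis, was 174 FPKM in SAHH-WT 1 and up to 79.3 FPKM in the library labelled SAHH-het 1. Of 11 markers of the adrenal cortex, 9 of which are members, 10 were highest in SAHH-WT 1 and Mrap was not.

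Markers of other organs that make steroids or lie near were also summed. Leydig cell markers summed to 8.25 FPKM against 1.59 to 10.7 FPKM in the others, with Cyp17a1 at 0, Insl3 at 2.36 FPKM and Hsd3b6 supplying most of the rest. Ovary markers summed to 3.74 FPKM against 0.475 to 1.89 FPKM, with Cyp19a1 and Fshr at 0 everywhere and Foxl2 at 2.79 FPKM, and Sertoli and germ cell markers to 2.01 FPKM against 0.671 to 1.39 FPKM. Kidney markers summed to 0.640 FPKM against 0.550 to 1.70 FPKM, with Umod at 0 everywhere. Hepatocyte markers summed to 95.5 FPKM against 36.6 to 429 FPKM, nearly all of it Cyp2e1, with Alb at 0.314 FPKM. Mast cell markers, all 5 within the range of the others, summed to 31.6 FPKM against 8.11 to 61.0.

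Fat and endothelial markers were low in SAHH-WT 1 by FPKM. Of 7 markers of white and brown fat, 6 were lowest there, with a sum of 738 FPKM against 4677 to 13353 FPKM. Ucp1, the brown fat uncoupling protein, was 18.0 FPKM against 1267 to 5768 FPKM. Of 6 endothelial markers, 5 were lowest, with a sum of 116.5 FPKM against 141 to 541 FPKM. Smooth muscle markers had 2 of 6 lowest and 4 within the range of the others. Of 9 genes of HDL handling and Scarb1 relatives, 6 were lowest and 0 highest in SAHH-WT 1, with Cd36, a fatty acid receptor of the same family as Scarb1, at 157 FPKM against 381 to 792, and Scarb2, the lysosomal member of that family, at 15.0 FPKM against 21.8 to 37.8. Scarb1 thus stood apart from both relatives in its place in that library.

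**Figure D4:**
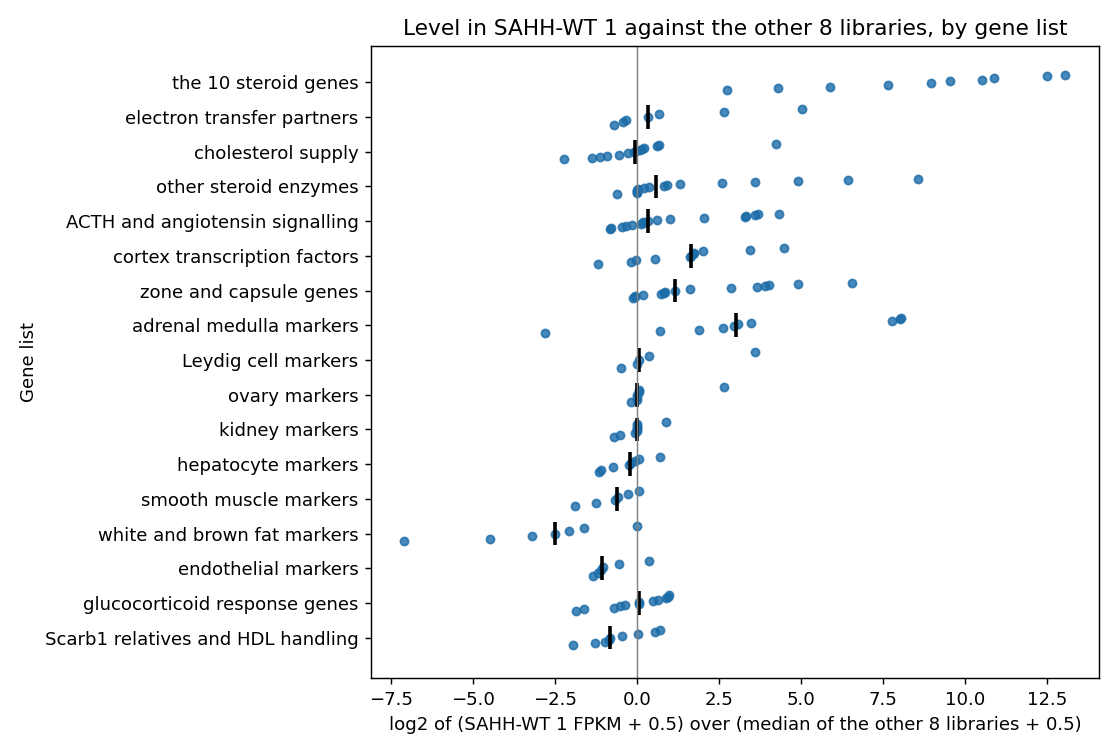
log2 ratio of SAHH-WT 1 to the median of the other 8 libraries (0.5 FPKM added to both) for each gene of 17 lists; points are genes and black bars are list medians, left out for the 10 chosen genes. The steroid genes lie right of 0, most medulla markers do too, and the fat markers lie left of it, with Lep next to it.

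Genes that respond to glucocorticoids had mixed places in SAHH-WT 1. Of 12 such genes, 3 were highest, 3 lowest and 6 within the range of the others in SAHH-WT 1, and their sum was 251 FPKM against 238 to 737 FPKM. Mt1, metallothionein, was lowest there at 84.2 FPKM against 115 to 582. It had the highest level of the list in every library, so the place of the sum leans on Mt1. Cdkn1a, a cell cycle inhibitor, was also lowest, at 13.4 FPKM against 15.4 to 45.2. The 3 highest were Per1, Ddit4 and Errfi1 (chosen after their values were seen). Per1 was 13.8 FPKM against 3.04 to 12.9, Ddit4 23.8 FPKM against 12.8 to 21.1, and Errfi1 17.0 FPKM against 5.54 to 10.98. Dusp1, a phosphatase of MAP kinases, and Klf9, a transcription factor, were within the range of the others. Nr3c1, the glucocorticoid receptor, was 6.68 FPKM against 12.2 to 17.8 FPKM. Across groups, Fkbp5, a chaperone of that receptor chosen after its values were seen, was 7.61, 4.48 and 2.44 FPKM in SAHH-WT 1, 2 and 3, 9.22, 7.77 and 11.2 FPKM in libraries labelled SAHH-het, and 3.33, 1.79 and 1.33 FPKM with betaine. SAHH-WT 1 was thus next to the lowest library labelled SAHH-het for Fkbp5. In SAHH-het+betaine minus SAHH-het, the Fkbp5 log2 difference of -1.96 was not called (adjusted p = 0.460 by limma). Over the list, the median log2 difference in that comparison was -0.36 without SAHH-WT 1, beside -0.01 over all genes, with 3 of 12 genes at an unadjusted p under 0.05, beside 1600 of 15393, and 0 called.

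Genes whose pattern was most like that of the members were those at 10 FPKM or more in SAHH-WT 1 and at most 0.5 FPKM in each of the other 8 libraries. There were 29, of which 6 were members, 5 were predicted genes or pseudogenes and 18 were other genes with a name. The same rule found 0, 1, 2 or 6 genes when applied to each of the other libraries, with the 6 in SAHH-het+betaine 2. The likeness was measured as the ratio of SAHH-WT 1 to the highest other library, over 9 libraries. Mgarp, a mitochondrial protein, led by level at 246 FPKM with a ratio of 1152. Akr1d1 followed with a ratio of 2048 and Pnmt with 431. Hao2, an oxidase of hydroxy acids lying 14.7 kb from Hsd3b1, was 82.4 FPKM from 3443 fragments and 0 in the others. Klhdc8a at 45.7 FPKM and the protease gene Prss35 at 45.1 FPKM had ratios of 92.1 and 101. The rest were Srd5a2, Akr1c18, Nr0b2, Gsg1l, Apoc4, Rapgef4os1, Pla2g2f, CT025731.4, Trank1, Ibsp, Nr0b1 and Rspo3, at 10.5 to 42.8 FPKM.

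Copies and overlapping genes bear on how reads were assigned, since no source used here states the strand setting of the count. Cyp21a2-ps, an unprocessed pseudogene 79.1 kb from Cyp21a1 (chr17:34719813-34722252), was 167 FPKM in SAHH-WT 1 and 0 to 0.283 FPKM elsewhere. Tnxa, a pseudogene that overlaps Cyp21a1 on the opposite strand, was 6.56 FPKM in SAHH-WT 1, Nr5a1os, antisense to Nr5a1, was 1.06 FPKM, and Gm13857, a pseudogene opposite Akr1b7, was 2.86 FPKM. Gm17322, which overlaps Cyp11a1 on the same strand, was 1.81 FPKM. Gm42633, which overlaps Scarb1 on the same strand, was 0.0532 FPKM in SAHH-WT 1 and at most 0.0242 FPKM elsewhere. Reads of such pairs cannot be told apart without strand, or in the overlap of genes on the same strand. The values of these members include that uncertainty. Gml2, on the opposite strand at Cyp11b1, was at 0 in SAHH-WT 1.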

How the data were processed

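RNA of 9 libraries was extracted with Trizol and sequenced as paired reads on a NovaSeq, per the labels' protocols and the series design text. The submitters' processing notes name HISAT2 2.0.5 and mm10. No source used here gives the counter, annotation, strand setting or FPKM formula. Deposited were FPKM, normalized by the authors for exon length and depth, with 1 column per library. FPKM sums ranged from 279298 in SAHH-WT 1 to 566309, so TPM rescaling raises SAHH-WT 1 relative to the others.

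Of 54532 genes, 54409 had a symbol and 54495 an exon length (GENCODE M21). The value of 1 fragment per library was found from low genes, and 98.3 to 98.7% of values under 100 fragments were then whole within 0.1. Floors of 3 fragments cover counting error only. Groups were compared with limma 3.58.1 (R 4.3.3) on log2(FPKM + 0.5), two-sided, eBayes with a trend, genes averaging 0.5 FPKM or more, all 9 libraries in 1 fit with 6 residual degrees of freedom, tested on simulated data first. No count test was run on FPKM. Per length, levels of different genes can be compared, and a log2(FPKM + 0.5) difference understates the change of low genes.

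Also tried were pseudocounts of 0.1 and 1, filtering at 1 FPKM or not at all, TPM rescaling, the replicate number as a block and leaving out each library. Deviations from the group means of SAHH-WT and SAHH-het libraries with the same number correlated at 0.29, 0.23 and 0.18, all over 0.1. Same-number pairs involving SAHH-het+betaine correlated at -0.35 to 0.08. Pairs with different numbers ran from -0.33 to 0.099 between SAHH-WT and SAHH-het, and from -0.45 to 0.39 with SAHH-het+betaine. What a number marks is not labelled, and a pairing would rest on the data alone. The highest Spearman correlation between 2 libraries was 0.918, so none is a copy of another.

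The members and the lists were chosen with earlier results of these data known. Named were the 10 members, Ahcy and Apoe, up to 4 genes per list with the highest level in any library, any gene called, and up to 20 genes most like the members. Others are marked as chosen after their values were seen. For lists of other tissues, the genes at 0 or supplying most of a sum were named as well.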

Additional observations from a re-analysis of the deposited data

How the results depend on the processing

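The number of members called was 0 in all 3 comparisons under every alternative run, as was the number of called genes from the other lists. Without SAHH-WT 1, 3 of the 10 members passed the filter. The other members passed it only through that library, so nothing is read from their 0 calls. The numbers of genes called over the whole table were small and moved. In SAHH-het minus SAHH-WT, 4 became 7 with no filter, 2 with TPM rescaling, and 1 to 4 when single libraries were left out, with 1 or 2 for every library except SAHH-WT 1 and SAHH-het 2. In SAHH-het+betaine minus SAHH-het, 3 became 1 to 4 when single libraries were left out, with 1 without SAHH-WT 3, SAHH-het 1, SAHH-het 3 or any SAHH-het+betaine library. In SAHH-het+betaine minus SAHH-WT, 0 became 3 with no filter and 0 to 1 when single libraries were left out, the 1 without SAHH-het 2. The causes were not tested.

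With the replicate block over all 9 libraries, 1 gene was called in SAHH-het minus SAHH-WT and 1 in SAHH-het+betaine minus SAHH-het, and in a fit of the 6 SAHH-WT and SAHH-het libraries alone with the replicate block, 0 in SAHH-het minus SAHH-WT. The block changed no other call.

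Leaving out single libraries changed the sign of some log2 differences. In SAHH-het minus SAHH-WT, Scarb1 ranged from -1.41 to 0.022 and Mc2r from -2.65 to 0.64, and in SAHH-het+betaine minus SAHH-WT Mc2r ranged from -3.12 to 0.18, each of them positive only without SAHH-WT 1. In SAHH-het+betaine minus SAHH-het, Scarb1 ranged from -0.41 to 0.084, positive without SAHH-het 2, and Star from -0.26 to 0.16, positive without SAHH-het 3, SAHH-het+betaine 1 or SAHH-het+betaine 3. Hsd11b1 in SAHH-het+betaine minus SAHH-WT was -0.18 with TPM rescaling, which moved the median of all genes to -0.28, -0.08 and -0.39 in the 3 comparisons, in the order given above.

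Genes like the members numbered 17 at no more than 0.1 FPKM elsewhere and 296 from 1 FPKM up. TPM rescaling raised SAHH-WT 1, to 15176 TPM for Hsd3b1, and its ratio to the next library to 751 for Star, 91.8 for Mc2r and 6.15 for Scarb1. The places of SAHH-WT 1 in the other gene lists are given by FPKM only, and its lowest places depend on that scale. Where a library held 0 fragments, a true level under 3 fragments remains possible at this depth.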
